A study of Mus musculus with 4 samples.

Results

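Lipoproteins are remodelled after they leave the liver. Lipoprotein lipase and hepatic lipase split the triglyceride and phospholipid of circulating particles, endothelial lipase acts mainly on HDL phospholipid, and the angiopoietin-like proteins ANGPTL4 and ANGPTL8 restrain lipoprotein lipase. LCAT esterifies cholesterol on HDL, PLTP moves phospholipid between particles, and the VLDL receptor binds triglyceride-rich lipoproteins. In an adult mouse, the liver is a main source of hepatic lipase, LCAT and ANGPTL8, whereas most lipoprotein lipase is made in adipose tissue, muscle and heart. This account follows the 8 genes *Lpl*, *Lipc*, *Lipg*, *Angptl4*, *Angptl8*, *Lcat*, *Pltp* and *Vldlr* in the livers of wild-type (WT) and *Usp21* knockout (KO) mice. They were picked by symbol for their known roles, out of 35739 genes in the table of transcript abundance.

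Liver total RNA was sequenced from 2 mice of each genotype, numbered 2 and 3 for WT and 1 and 3 for *Usp21* KO, each with its own library. The mice were littermates of 10 to 11 weeks of age on a normal diet, and the KO allele lacks exons 3 and 4 of *Usp21*, the gene of a deubiquitylase, in every tissue. The KO alleles came from mice of a mixed B6 × 129/Sv background and the WT alleles from B6 mice. The methods give no hour of collection and no feeding state. *Usp21* itself stood at 4.07 and 6.29 TPM in WT and at 1.64 and 2.93 TPM in KO, lower in both KO livers but not absent. These values are per gene and can include reads of the exons that the KO allele keeps, so they do not measure the loss of exons 3 and 4. Hepatocyte markers were abundant throughout, with *Alb* (albumin) between 27475 and 43181 TPM.

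Abundance is given as TPM, a share of all transcripts in a library that corrects for transcript length and so allows levels of different genes to be compared. TPM keeps no record of the number of reads, so the depth behind each value is unknown. Differences between genotypes are log2 fold changes, KO minus WT, on log2(TPM + 1), tested with limma over the 9581 genes that averaged 1 TPM or more, with Benjamini-Hochberg adjustment. Because of the added 1, the differences of genes with low TPM come out too small. The median of all tested genes was 0.15, and it fell to 0.04 with each library scaled to an equal upper quartile and to 0.01 with TMM scaling, so each value below can be read against that shift. For a single gene, exact permutation over 4 libraries cannot give a p below 0.33. The labels number the mice but say nothing of litter or preparation, so the p-values cover no spread beyond these 4 libraries. They also rest on variances that limma moderates across genes, with 3.62 prior beside 2 residual degrees of freedom.

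The 2 secreted triglyceride lipases and LCAT share a short stretch around the serine that carries out catalysis. The stretches are shown because the 3 enzymes share a motif there, while their genes differed in how they behaved between the livers. Each stretch was centred on the serine of that motif (Gly, Tyr or His, Ser, Leu, Gly). They are coding, read from the GENCODE M21 transcripts (GRCm38), and the capitals mark the serine codon. In *Lpl* it is codon 159, in exon 4 (chr8:68894654-68894692, forward strand). In *Lipc* it is codon 169, also in exon 4 (chr9:70818901-70818939, reverse strand). In *Lcat* it is codon 205, in exon 5 (chr8:105941754-105941792, reverse strand).
Lpl: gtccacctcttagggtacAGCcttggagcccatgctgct
Lipc: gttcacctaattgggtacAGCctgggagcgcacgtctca
Lcat: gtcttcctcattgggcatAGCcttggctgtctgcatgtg
Over these 39 bases, *Lpl* and *Lipc* were identical at 28 positions (71.8%), *Lpl* and *Lcat* at 23 and *Lipc* and *Lcat* at 20. Of the 13 encoded residues, *Lpl* and *Lipc* shared 10, *Lpl* and *Lcat* 6, and *Lipc* and *Lcat* 7. Since the stretches were chosen by the motif, its shared residues were fixed by that choice and do not measure relatedness.

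The levels of the 8 genes covered a wide range. *Lcat* was the most abundant in every library, between 257.7 and 317.7 TPM, and *Lipc* was second by mean in both genotypes. The 2 inhibitors came next, *Angptl8* above *Angptl4* by mean in WT and below it in KO. The ranges of these neighbours overlapped, those of *Angptl8* and *Lipc* in WT and those of *Angptl4* and *Lipc* in KO. *Pltp* and *Lpl* were in the range of 4.60 to 30.9 TPM, with *Pltp* above *Lpl* in both WT libraries and in KO replicate 3 and below it in KO replicate 1. *Lipg* lay near 1 TPM. *Vldlr* was lowest, at no more than 0.377 TPM, and did not reach the mean of 1 TPM, so 7 of the 8 genes were tested and *Vldlr* was fitted without the filter.

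**Figure D1:**
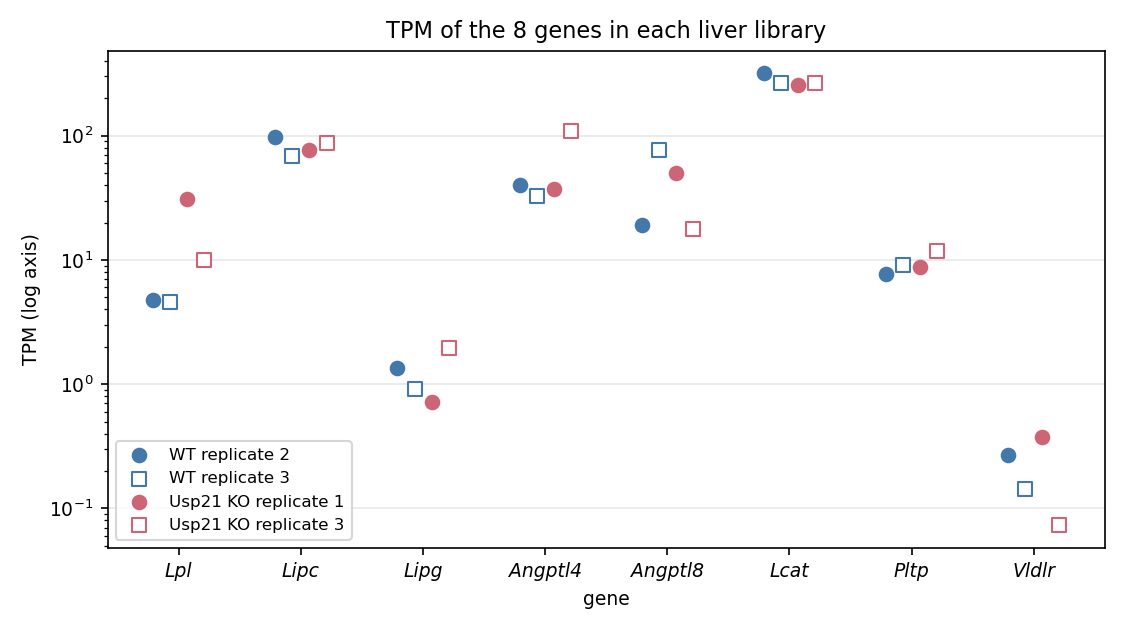
TPM (log axis) of each of the 8 genes in the WT libraries (blue) and the *Usp21* KO libraries (red), 1 point per library, with filled circles for the lower and open squares for the higher replicate number. Both KO points of *Lpl* lie above both WT points, *Angptl4* stands apart in KO replicate 3, and the *Angptl8* points of the genotypes are interleaved.

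Of the 7 tested genes, 0 had an adjusted p under 0.05 in limma, compared with 0.0835% of all tested genes. In the second table described below, only *Lpl*, with 1 read in all, and *Pltp* had any read. The count of 0 in edgeR and DESeq2 therefore rests on the reads listed for *Pltp*. Where its exons overlap those of *Ctsa*, such reads cannot be told apart, as described below. These tools called 12 and 1 of all 5146 genes. *Lpl* alone had an unadjusted p under 0.05 (10.5% of all tested genes) and alone differed by at least 2-fold on the log2(TPM + 1) scale (3.68% of all tested genes). By the ratio of mean TPM, *Angptl4* reached 2.01 as well, and without KO replicate 1 the log2 fold change was 0.95 for *Lpl*, 1.56 for *Angptl4* and -1.08 for *Angptl8*, so which genes reached 2-fold depended on that library. The groups did not overlap for 2 of the 7, *Lpl* and *Lcat*, whereas 45.3% of all tested genes had groups that did not overlap. *Lpl* was on the higher side, as were 34.4% of all tested genes, and *Lcat* on the lower side, as were 10.9%. The median log2 fold change was 0.05 for the 8 genes and 0.15 for all tested genes. This order turned without WT replicate 2 (0.185 and 0.155), without WT replicate 3 (0.154 and 0.146) and without KO replicate 1 (0.276 and 0.0843).

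**Figure D2:**
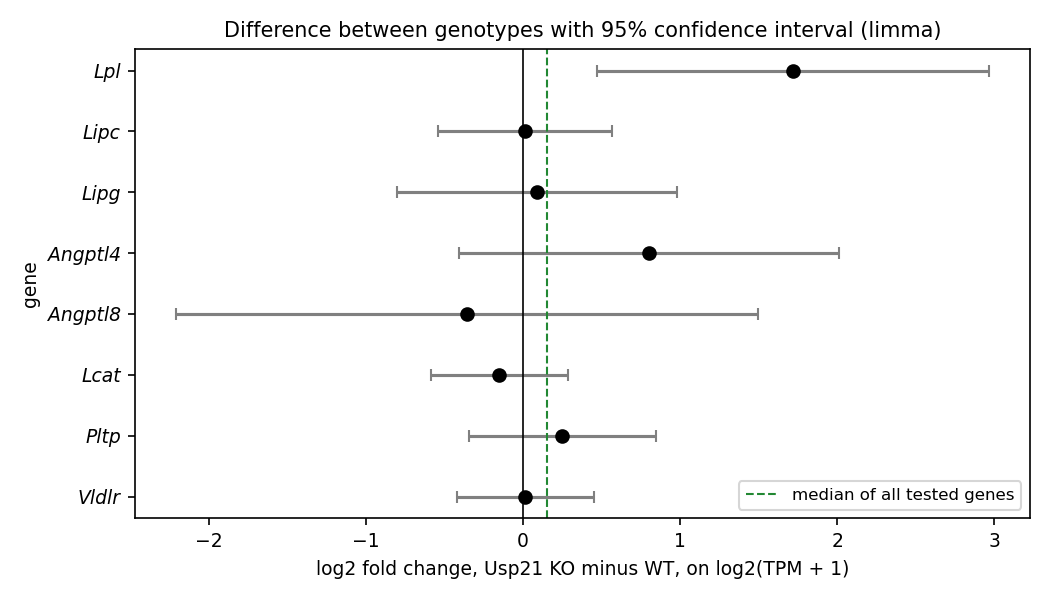
Log2 fold change between *Usp21* KO and WT livers on log2(TPM + 1) for the 8 genes, with the 95% confidence interval from limma as bars and the median of all tested genes (0.15) as a dashed line. The interval of *Lpl* (0.47 to 2.97) is the only one of the 8 that leaves out 0, and that of *Angptl8* is the widest. All intervals rest on variances moderated across genes.

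Among the lipases, *Lpl* (ENSMUSG00000015568, chromosome 8, 68880491 to 68907448, forward strand, 10 exons) showed the largest difference. It stood at 4.73 and 4.60 TPM in the WT livers (mean 4.67 ± 0.0976, SD, n = 2) and at 30.9 TPM in KO replicate 1 and 9.93 TPM in KO replicate 3 (mean 20.4 ± 14.8, SD, n = 2). The WT livers were nearly equal, and the KO livers were both higher but far apart from each other. The mean TPM was 4.37 times as high in KO, and the log2 fold change was 1.72 (SE 0.50, limma adjusted p = 0.464, unadjusted p = 0.0155). It was 0.95 without KO replicate 1 and 2.49 without KO replicate 3, and it stayed between 1.26 and 1.89 with the other pseudocounts and scalings of TPM. The limma p-values of *Lpl* rest on variances moderated across genes. Without moderation, the linear model gave an adjusted p of 0.644.

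*Lpl* is known to be expressed by macrophages and adipocytes, so the markers of these cells are given beside it. In bulk tissue, a change in the number of cells of a type and a change in RNA per cell cannot be told apart. Of the 9 Kupffer cell (liver macrophage) markers, 0 were higher and 0 were lower in both KO libraries, beside 34.4% and 10.9% of all tested genes. Their summed level was 211.6 and 248.5 TPM in WT livers as against 114.3 and 290.2 TPM in KO livers, so KO replicate 1, with the highest *Lpl*, had the lowest sum. Of the single markers, *Marco* was lowest in WT replicate 2 (1.48 TPM, beside 2.11 TPM in KO replicate 1), and *Clec4f* was close in these libraries (32.1 and 30.0 TPM). The complement gene *C1qa* had 23.4 TPM there and between 47.8 and 59.3 TPM in the other libraries.

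The adipocyte-defining genes were at or near 0. *Plin1* and *Retn* were listed at 0 in all 4 libraries, and *Adipoq* (adiponectin) at 0 in 3 of them and at 0.224 TPM in KO replicate 3. *Fabp4*, which endothelial cells and macrophages also express, made up most of the adipocyte sum, with 4.61 and 9.47 TPM in WT livers as against 15.4 and 9.91 TPM in KO livers, and each KO liver exceeded each WT liver. The 3 skeletal muscle markers were at 0 in every library, as were 4 of the 5 exocrine pancreas markers. The 4 stellate cell markers summed to 67.3 and 49.7 TPM in WT livers as against 93.4 and 72.9 TPM in KO livers, and 2 of the 4 (*Reln* and *Dcn*) were higher in both KO libraries. For the sinusoidal endothelial markers this was 2 of 6, which is near the 34.4% of all tested genes. The part of these cells in the *Lpl* difference was not tested.

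**Figure D3:**
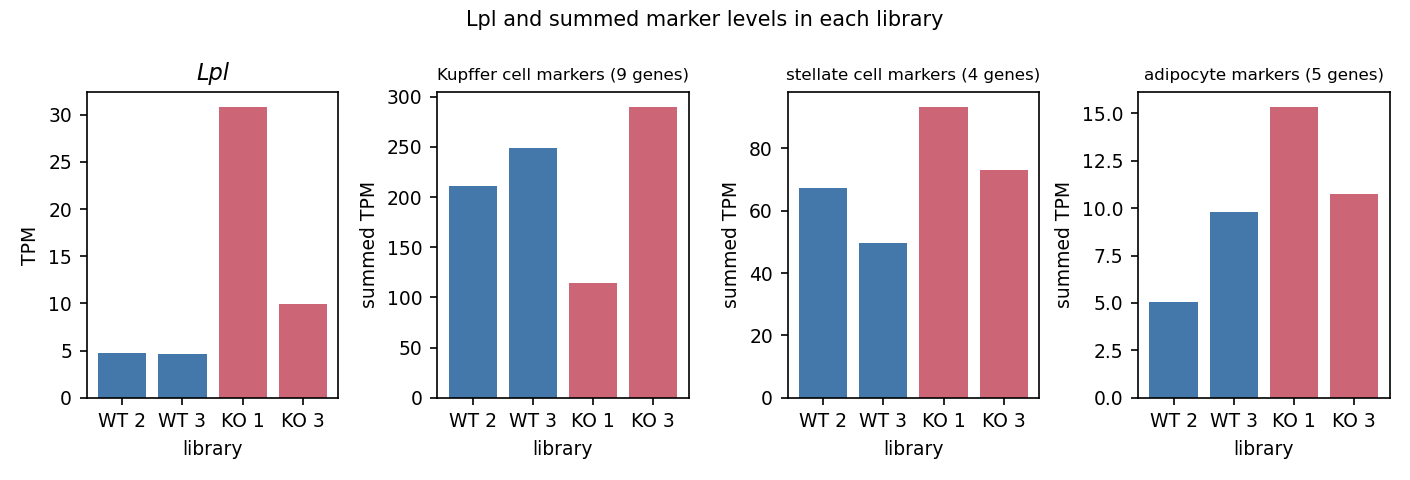
*Lpl* (TPM) and the summed TPM of Kupffer cell, stellate cell and adipocyte markers in each library, WT in blue and *Usp21* KO in red, 1 bar per library from 0. KO replicate 1 has the tallest *Lpl* bar (30.9 TPM) and the shortest Kupffer cell bar (114.3 TPM), whereas its stellate cell and adipocyte bars are the tallest. The adipocyte bar of KO replicate 1 is *Fabp4* alone (15.4 TPM), which endothelial cells and macrophages also express.

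*Lipc* (ENSMUSG00000032207, chromosome 9, 70798128 to 70952226, reverse strand), which encodes hepatic lipase, had 97.5 and 68.4 TPM in WT livers as against 77.0 and 88.1 TPM in KO livers. Both KO livers lay between the WT livers. Its log2 fold change was 0.01 (SE 0.22, 95% confidence interval -0.54 to 0.57, limma adjusted p = 0.985), and it was -0.12 and -0.15 with upper quartile and TMM scaling. The log2 ratio of *Lipc* to *Lpl*, computed within each library, was 4.10 and 3.63 in WT and 1.29 and 3.03 in KO, lower in both KO libraries, with a difference of -1.71 (two-sided exact permutation p = 0.33, the smallest this design can give). As *Lipc* differed by only 0.01, this restates the *Lpl* difference of 1.72 with its sign turned and is no separate result.

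*Lipg*, the gene of endothelial lipase (ENSMUSG00000053846), had 1.35 and 0.921 TPM in WT livers as against 0.715 and 1.97 TPM in KO livers. The KO livers lay on either side of the WT livers. Its log2 fold change was 0.09 (SE 0.36, 95% confidence interval -0.80 to 0.98, limma adjusted p = 0.937), -0.31 without KO replicate 3 and 0.49 without KO replicate 1. Among the other genes of the lipase family, 5 of 6 (*Pnlip*, *Pnliprp1*, *Pnliprp2*, *Liph* and *Lipi*) were listed at 0 in all libraries. *Pla1a*, a phosphatidylserine phospholipase, had 17.5 and 28.3 TPM in WT livers as against 22.3 and 14.1 TPM in KO livers, with overlapping groups.

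For both inhibitors of lipoprotein lipase, the levels of the genotypes overlapped. *Angptl4* (ENSMUSG00000002289, chromosome 17, 33773750 to 33781830, reverse strand), which is known to be induced by fasting and by PPAR agonists, had 39.8 and 32.7 TPM in WT livers as against 37.3 and 108.4 TPM in KO livers. KO replicate 1 was within the WT range, and KO replicate 3 was well above all others. The log2 fold change was 0.80 (SE 0.49, 95% confidence interval -0.41 to 2.01, limma adjusted p = 0.560). It was 0.05 without KO replicate 3 and 1.56 without KO replicate 1, so the difference rested on KO replicate 3.

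*Angptl8* (ENSMUSG00000047822, chromosome 9, 21835510 to 21837347, forward strand, 4 exons) is known to be induced by feeding and insulin. It had 19.1 and 76.7 TPM in WT livers as against 50.1 and 17.6 TPM in KO livers. A high and a low liver occurred in each genotype, the highest being WT replicate 3 and the lowest KO replicate 3. Its log2 fold change was -0.36 (SE 0.74, 95% confidence interval -2.21 to 1.49, limma adjusted p = 0.869). The sign turned to 0.62 without WT replicate 3 and to 0.37 without KO replicate 3. The gene lies inside *Dock6* on the opposite strand, with 0 exonic bases shared.

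*Angptl4* and *Angptl8* were in a different order across the 4 livers. The library with the most *Angptl4*, KO replicate 3, had the least *Angptl8*, and the library with the most *Angptl8*, WT replicate 3, had the least *Angptl4*. The log2 ratio of *Angptl8* to *Angptl4* was -1.02 and 1.21 in WT and 0.41 and -2.55 in KO, so it spanned more within each genotype (SD 1.58 and 2.10) than the difference of -1.16 between the means (two-sided exact permutation p = 0.667). Without KO replicate 3 the difference was 0.32. Of the 3 tested other members of the angiopoietin-like family, 1 was higher and 2 were lower by fold change.

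**Figure D4:**
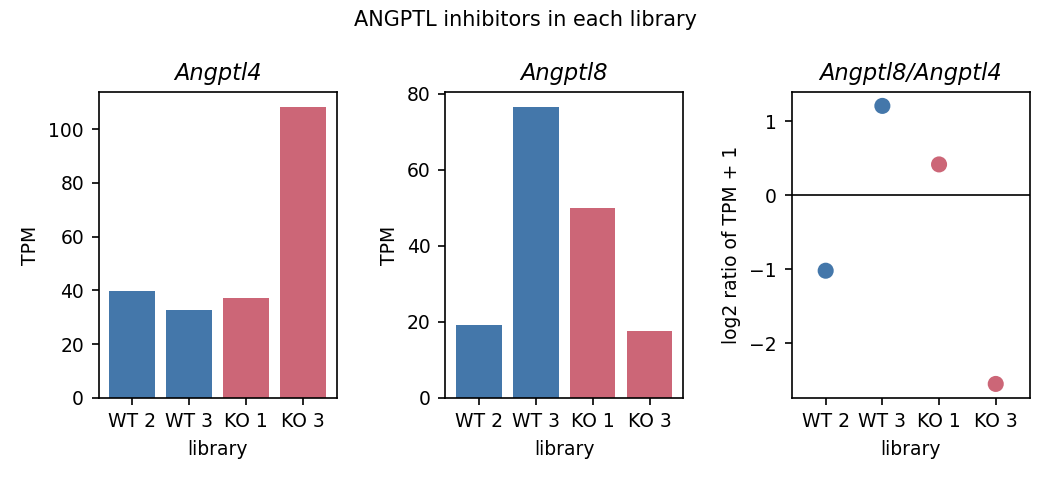
TPM of *Angptl4* and *Angptl8* (bars from 0) and the log2 ratio of *Angptl8* to *Angptl4* after adding 1 to each TPM (points) in every library, WT in blue and *Usp21* KO in red. KO replicate 3 combines the tallest *Angptl4* bar (108.4 TPM) with the shortest *Angptl8* bar (17.6 TPM), and the ratio changes sign within both genotypes.

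Of the genes that modify HDL and other particles in plasma, *Lcat* (ENSMUSG00000035237, chromosome 8, 105939551 to 105943382, reverse strand) had 317.7 and 263.7 TPM in WT livers as against 257.7 and 263.4 TPM in KO livers. The groups did not overlap, but KO replicate 3 and WT replicate 3 were almost equal. The log2 fold change was -0.15 (SE 0.18, 95% confidence interval -0.59 to 0.29, limma adjusted p = 0.755), and it was -0.02 without WT replicate 2. An antisense gene, *Gm16156*, spans *Lcat* and shares 0 exonic bases with it.

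*Pltp* (ENSMUSG00000017754, chromosome 2, 164839518 to 164857711, reverse strand, 15 exons) had 7.70 and 9.18 TPM in WT livers as against 8.79 and 11.8 TPM in KO livers, with overlapping groups. Its log2 fold change was 0.25 (SE 0.24, 95% confidence interval -0.34 to 0.84, limma adjusted p = 0.697), and 0.06 without KO replicate 3. The log2 ratio of *Pltp* to *Lcat* was -5.20 and -4.70 in WT and -4.72 and -4.37 in KO, also with overlapping groups (difference 0.40, two-sided exact permutation p = 0.667). The gene overlaps *Ctsa*, which encodes the lysosomal protease cathepsin A on the opposite strand, from 164839518 to 164841032, and 495 bases there are exonic in both genes. The strand setting of the authors' counting is not given, so reads in that stretch cannot be told apart between the genes. In the authors' second table, of reads counted on alignments and scaled to library size (CPM), *Pltp* had 268.7 and 247.7 CPM in WT and 200.4 and 202.9 CPM in KO. In that table each KO liver was lower than each WT liver, the opposite sign to the TPM values, from 22 to 35 reads per library. *Alb*, at 9.22 to 69.1 CPM, ranked below *Pltp* there, and *Lcat* and *Lipc* were at 0. The CPM values therefore do not follow the abundances in TPM. The log2 fold change of *Pltp* on those reads was -0.36 (adjusted p = 0.821 from edgeR's quasi-likelihood test).

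*Vldlr* (ENSMUSG00000024924, chromosome 19, 27216484 to 27254231, forward strand), which has low expression in the healthy liver, had 0.269 and 0.142 TPM in WT livers as against 0.377 and 0.0731 TPM in KO livers. The KO livers were the highest and the lowest of the 4. Its log2 fold change was 0.01 (SE 0.17, 95% confidence interval -0.42 to 0.45, fitted without the filter on low values), and it was -0.06 with a pseudocount of 0.1, -0.01 with upper quartile scaling and -0.02 with TMM scaling. A difference in *Vldlr* between genotypes was not detectable at this level of expression.

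**Figure D5:**
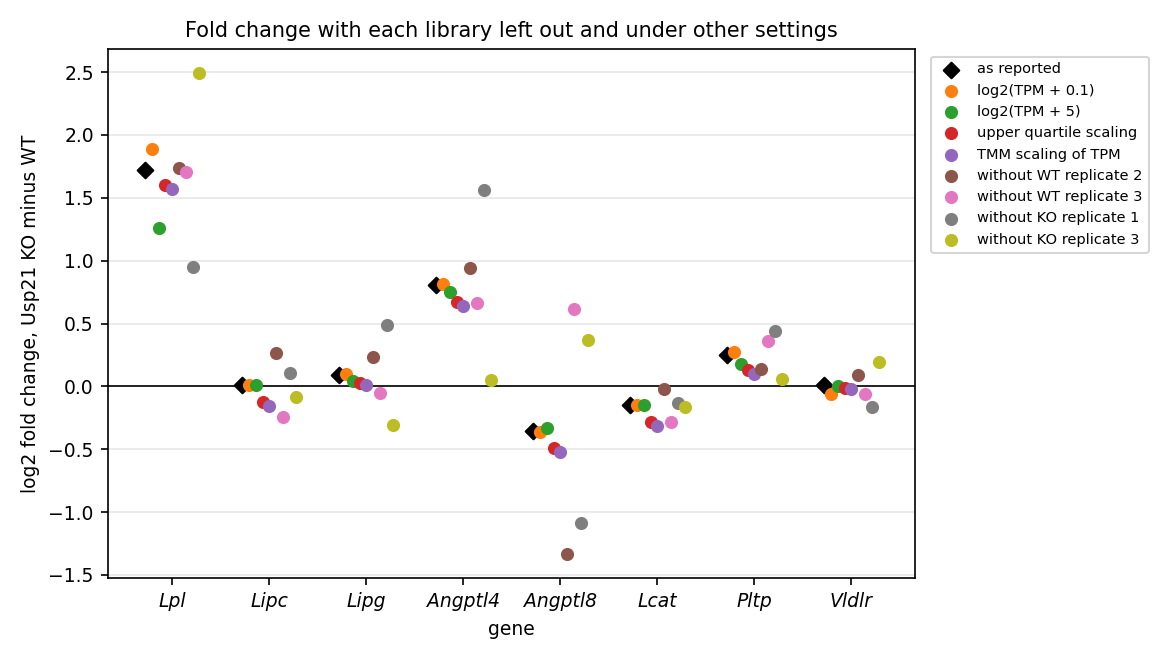
Log2 fold change of the 8 genes as reported (black diamonds), with other pseudocounts and scalings, and without each of the 4 libraries (coloured circles). *Lpl* stays between 0.95 and 2.49, *Angptl4* falls to 0.05 without KO replicate 3, and *Angptl8* lies on both sides of 0 (-1.33 to 0.62).

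The genes that act with these 8 were examined as 6 lists with 56 genes in all, of which 46 were tested. An adjusted p under 0.05 in limma was found for 0 of the 46. An unadjusted p under 0.05 was found for 5, with 1 higher and 4 lower in KO, and the background of all tested genes is the 10.5% given above. The median log2 fold change of the 46 genes was -0.01.

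Of the 12 tested genes for the folding, transport and cofactors of lipoprotein lipase, 6 were higher and 6 lower by fold change (median 0.02). *Gpihbp1*, which carries lipoprotein lipase across the capillary endothelium, had 16.3 TPM in both WT libraries and 10.9 and 10.7 TPM in KO. Each KO liver was below each WT liver, and the replicates were close (log2 fold change -0.55, SE 0.19, limma adjusted p = 0.464, unadjusted p = 0.0264). *Gpihbp1* is also 1 of the 4 markers of endothelium other than sinusoidal, and for the other 3 the KO livers were not both lower. *Pecam1* had 3.04 and 2.10 TPM in WT livers as against 2.18 and 4.17 TPM in KO livers, and *Cdh5* 3.13 and 2.79 TPM in WT livers as against 3.55 and 3.71 TPM in KO livers. *Lmf1*, a chaperone for lipase folding, had 22.3 and 16.3 TPM in WT livers as against 15.8 and 31.9 TPM in KO livers, with overlapping groups.

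Of the apolipoproteins that act on lipoprotein lipase, *Apoc2* and *Apoa5* had overlapping groups. *Apoc2*, its activator, had 390.8 and 313.7 TPM in WT livers as against 380.3 and 364.5 TPM in KO livers, and *Apoa5*, which favours its activity, had 571.6 and 417.2 TPM in WT livers as against 560.5 and 469.9 TPM in KO livers. *Apoc3*, an inhibitor, had 3416 and 3086 TPM in WT livers as against 2832 and 2508 TPM in KO livers, and each KO liver was below each WT liver (log2 fold change -0.28, SE 0.21, limma adjusted p = 0.619).

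Of the 10 tested receptors and receptor regulators, 4 were higher and 6 lower by fold change (median -0.16). *Scarb1*, the HDL receptor, had 87.9 and 51.3 TPM in WT livers as against 108.1 and 99.4 TPM in KO livers, and *Lrp1*, a remnant receptor, 72.9 and 84.0 TPM in WT livers as against 127.1 and 94.9 TPM in KO livers. For both genes each KO liver was above each WT liver, with unadjusted p of 0.0711 and 0.0616 from limma. They were the only 2 of the 10 with groups apart on the higher side, and 1 was apart on the lower side. The shares of all tested genes were 34.4% and 10.9%.

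Of the 9 tested genes for HDL proteins, lipid efflux and plasma phospholipases, 3 were higher and 6 lower by fold change (median -0.24), and the groups did not overlap for 4 of the lower and 2 of the higher genes, beside 10.9% and 34.4% of all tested genes. *Apom*, an HDL apolipoprotein that carries sphingosine 1-phosphate, had 329.9 and 282.6 TPM in WT livers as against 170.6 and 212.6 TPM in KO livers (log2 fold change -0.68, SE 0.19, limma adjusted p = 0.464, unadjusted p = 0.0141). *Pla2g15*, a lysosomal phospholipase of the same family as LCAT, had 4.04 and 4.95 TPM in WT livers as against 2.37 and 2.82 TPM in KO livers. *Abca1*, which loads lipid onto apoA-I, had 5.98 and 6.94 TPM in WT livers as against 10.8 and 8.76 TPM in KO livers.

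Of the 12 transcription factors known to act on the 8 genes, 8 were higher and 4 lower by fold change (median 0.17). *Srebf1*, which drives lipogenic genes, had 58.1 and 64.3 TPM in WT livers as against 27.3 and 20.7 TPM in KO livers, the lowest p of the 46 genes (log2 fold change -1.32, SE 0.20, limma adjusted p = 0.242, unadjusted p = 0.000808). *Hnf4a*, a nuclear receptor of hepatocytes, had 111.6 and 105.3 TPM in WT livers as against 171.3 and 155.3 TPM in KO livers (log2 fold change 0.59, limma adjusted p = 0.464, unadjusted p = 0.0123). *Ppara*, the receptor through which fatty acids act on *Angptl4*, had 11.6 and 12.8 TPM in WT livers as against 13.2 and 13.9 TPM in KO livers. Each KO liver was above each WT liver in *Ppara*, as for 34.4% of all tested genes, and the range was narrow. Its highest value was in the library with the most *Angptl4*. KO replicate 1, also above both WT livers in *Ppara*, had *Angptl4* within the WT range. A link between these genes was not tested.

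For each of the 8 genes, the genes with the most similar profile over the 4 livers were found among 4024 or 4025 genes that averaged 10 TPM or more, by the Euclidean distance between centred log2(TPM + 1) values. With 4 libraries this only describes the order of the values and the size of their differences on that scale. Because of the added 1, a gene of low TPM can be near an abundant gene whose TPM differs far less in proportion. The profile nearest to *Lpl* was that of *Chka* (choline kinase alpha), at a distance of 0.346, with 3.52 and 4.71 TPM in WT livers as against 32.4 and 10.5 TPM in KO livers, followed by *Hnrnph1* and *Fabp5*. *Angptl4* was nearest to *Creld2*, at 0.305, with 19.2 and 17.5 TPM in WT livers as against 20.1 and 71.6 TPM in KO livers, then to *Igkc* and *Ero1b*. *Angptl8* was nearest to the metallothionein genes *Mt1* (0.485) and *Mt2* (0.519) and to *Ier2*. *Mt1* had 216.1 and 890.2 TPM in WT livers as against 519.9 and 137.3 TPM in KO livers, which is the order of *Angptl8*.

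The other 5 genes spanned smaller ranges on this scale, and the distances to their nearest profiles were all under those above. *Lipc* was nearest to *Chpt1*, *Akt1s1* and *Arsa*, *Lcat* to *Ap2m1*, *Rbck1* and *Gstm1*, and *Pltp* to *Cript*, *Dcun1d1* and *Copg1*. *Lipg* was nearest to *Clec4g*, a marker of liver sinusoidal endothelial cells, at a distance of 0.0302, then to *Tmed3* and *Tmed7*. *Clec4g* had 29.7 and 23.8 TPM in WT livers as against 21.3 and 36.8 TPM in KO livers. *Vldlr* was nearest to *Fetub*, *Atp5f1a* and *Ergic3*. *Fetub* had 548.0 and 503.2 TPM in WT livers as against 591.8 and 471.1 TPM in KO livers, a narrower range in proportion than that of *Vldlr*. For *Lipg* and *Vldlr*, the small distances therefore do not mean similar fold differences.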

How the data were processed

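Liver RNA-seq libraries of 2 WT and 2 KO mice took their genotype and number from the sample labels, and table columns were matched by name. The authors estimated abundance with salmon against a transcriptome named mm10 and deposited TPM per Ensembl gene. They also deposited the same values as log2(TPM + 1), which were used only to check the TPM. From alignments to mm10 they counted reads with HTSeq and deposited a TMM-normalized CPM, used here as a signal scaled by the authors. Tool versions, annotation release and strand setting are not given in the sources used here. The CPM values are whole multiples of 1 read in each library (100% within 0.02 reads), which gave between 102898 and 148164 recovered reads. Of 682 genes that reached 100 TPM in each library, the CPM table lists 428 at 0 throughout, and TPM was therefore used for the comparison. The limit set by 0 reads is 3 reads, or 20.0 to 27.7 CPM (counting error only). The 4 columns of the log2 CPM table were not used.

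Genes averaging 1 TPM or more were tested with limma 3.58.1 in R 4.3.3 (two-sided, moderated variances with a trend, prior degrees of freedom 3.62). Confidence intervals are at 95%. Alternatives included pseudocounts of 0.1 and 5, no filter or a mean of at least 5 TPM, upper quartile and TMM scaling, no moderation, the CPM values, edgeR 4.0.16 and DESeq2 1.42.0 on recovered reads, and each library left out. Coordinates are those of GENCODE M21 (GRCm38). Scripts were tested on simulated data, and how often a 2-fold change was recovered there is not given here. The 8 genes, the gene lists and the tests were chosen with earlier results of these data known. The genes named are the 8, genes of the lists with an unadjusted p under 0.05 or a 2-fold change, fixed partners, list and marker genes picked after their values were seen (*Pla1a*, *Scarb1*, *Lrp1*, *Pla2g15*, *Abca1*, *Ppara*, *C1qa*, *Pecam1*, *Cdh5*), and the 3 nearest profiles of each gene. Some genes that this rule takes in are not reported here.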

Additional observations from a re-analysis of the deposited data

How the results depend on the processing

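No paired analysis was possible because the labels give each mouse a number but no litter or pair. For the 8 genes, 0 had an adjusted p under 0.05 under every alternative run, but on the CPM table this covers only *Lpl* and *Pltp*. Leaving out each library gave between 1 and 2 genes that differed by at least 2-fold, between 4 and 7 with groups that did not overlap (an arm of 1 library overlaps less by construction), and a median of 0.05 to 0.28. A lone library in an arm is assumed to vary like the others. Of all tested genes, 8 had an adjusted p under 0.05, compared with 4 without the filter, 0 without moderation and 0 with any library left out.

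Of the fold changes of single genes, 78 kept their sign and 16 did not. *Lipc* turned to -0.12 with upper quartile scaling and -0.15 with TMM scaling, and ranged from -0.24 (without WT replicate 3) to 0.26 with a library left out, with -0.08 without KO replicate 3. *Lipg* ranged from -0.31 (without KO replicate 3) to 0.49 and was -0.06 without WT replicate 3. *Angptl8* ranged from -1.33 to 0.62 (without WT replicate 3) and was 0.37 without KO replicate 3. *Vldlr* was -0.057 with a pseudocount of 0.1, -0.014 with upper quartile and -0.022 with TMM scaling, and ranged from -0.17 (without KO replicate 1) to 0.19, with -0.062 without WT replicate 3. *Pltp* was -0.35 on the CPM values, -0.36 in edgeR and -0.38 in DESeq2. On the CPM table only *Lpl* and *Pltp* had any read, and *Lpl* had 1 in all, so the median of 0.97 in edgeR and the 1 gene (*Pltp*) with groups that did not overlap describe those alone, and the ratios could not be computed. The cause of these turns was not tested.

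In the lists, 9 genes had an unadjusted p under 0.05 with TMM scaling, and between 2 (without WT replicate 3) and 7 with a library left out. The median of the lists was -0.13 with upper quartile scaling and -0.16 with TMM scaling, and -0.088 to 0.082 with a library left out. The difference in the *Angptl8* to *Angptl4* ratio was between -2.65 (without KO replicate 1) and 0.32 (without KO replicate 3), that of *Lipc* to *Lpl* between -2.58 and -0.84, and that of *Pltp* to *Lcat* between 0.15 and 0.65.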

Other observations

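In the CPM table, the order of abundance differed from that in the TPM table. *Pltp* had from 200.4 to 268.7 CPM and *Angptl6*, another angiopoietin-like gene, from 129.1 to 183.5 CPM, while their TPM was 7.70 to 11.8 and 4.32 to 4.98. *Lcat* and *Lipc*, at 68.4 to 317.7 TPM, were at 0 CPM in every library, and *Alb* had between 9.22 and 69.1 CPM. *Ctsa*, which overlaps *Pltp*, had 153.5 and 238.5 CPM in WT and 187.0 and 230.6 CPM in KO, compared with 58.6 and 48.0 TPM in WT livers as against 47.5 and 40.9 TPM in KO livers.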
